A study of Rattus norvegicus with 8 samples.

Results

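Purinergic signalling was followed in peritoneal macrophages through 10 genes, taken from the table by their symbols: the adenosine enzymes Entpd1, Nt5e and Ada, the adenosine receptors Adora2a and Adora2b, and the nucleotide receptors P2rx4, P2rx7, P2ry2, P2ry6 and P2ry12. All 10 were found among the 23487 genes of the deposited RNA-seq table, and all 10 were among the 12124 genes kept by the filter on low counts. The macrophages came from female Wistar rats, 8 weeks old, killed 15 days after intraperitoneal injection of carbon nanotubes. In 4 rats (numbers 3, 5, 10 and 11) the particles were CNT-7, the needle-like multi-walled nanotubes MWCNT-XNRI-7, which cause mesothelioma in rats. In 4 others (numbers 1, 2, 12 and 13) they were CNT-T, tangled nanotubes that do not. Each library was made from the sorted cells of 1 rat, so the comparison answers how the genes differ between macrophages exposed to a mesotheliomagenic and a non-mesotheliomagenic nanotube. Both groups carried particles, and no library of an untreated rat was analysed here, so a difference cannot be assigned to a rise under one particle or a fall under the other.

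Stressed and dying cells release ATP, which acts on macrophages before it is broken down. P2X receptors are cation channels opened by ATP, and P2Y receptors are G protein-coupled receptors for ATP, UTP and their diphosphates. At the cell surface CD39 (Entpd1) removes phosphates from ATP and ADP, and CD73 (Nt5e) converts the resulting AMP to adenosine. Adenosine deaminase (Ada) converts adenosine to inosine. Adenosine receptors of the A2 class (Adora2a, Adora2b) raise cyclic AMP, which restrains the inflammatory output of macrophages, whereas P2X7 (P2rx7) is known for triggering the NLRP3 inflammasome and the release of IL-1β.

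Macrophages of CNT-7-treated rats had more mRNA of both A2 adenosine receptors and of P2rx4, and less mRNA of Nt5e and P2ry2, than macrophages of CNT-T-treated rats. Levels were 2.17-fold higher in CNT-7 for Adora2a, 1.80-fold for Adora2b and 1.45-fold for P2rx4, and 1.6-fold higher in CNT-T for Nt5e and 1.36-fold higher for P2ry2. The quasi-likelihood test of edgeR called a gene at a Benjamini-Hochberg adjusted p-value under 0.10, the threshold of the study. It called 3 of the 10 genes higher in CNT-7, against 13.9% of all genes tested, and 2 lower, against 14% of all genes. In either direction 5 of 10 were called, where the share over all genes was 27.9%. The call of P2rx4 was the weakest (adjusted p = 0.0809), its groups overlapped, and it was lost in 7 of 14 alternative fits. The 4 rats of each group did not overlap for 4 of the 10 genes, against 24.9% of all genes. The median log2 fold change (CNT-7 over CNT-T) of the 10 genes was 0.17, and that of all 12124 genes was 0.01.

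**Figure D1:**
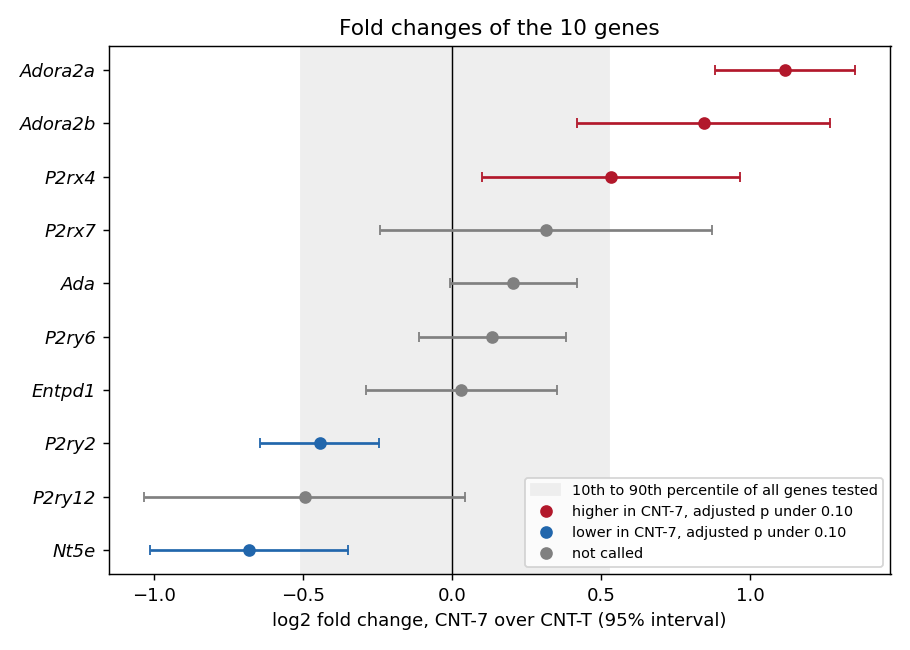
Log2 fold change, CNT-7 over CNT-T (x axis), of each of the 10 genes (y axis), with points at the estimate of edgeR, bars for the 95% interval, and a grey band from the 10th to the 90th percentile of all 12124 genes tested (-0.51 to 0.53). Adora2a, Adora2b, P2rx4 and, on the other side, Nt5e have estimates outside the band, and the bars of the 5 genes that were not called cross 0.

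Sorted cells are a bulk sample, in which fewer cells of a type and less RNA per cell cannot be told apart. Between 27195157 and 33732981 counts were assigned to genes per rat, and 3 counts, the smallest level considered measurable, corresponded to at most 0.109 CPM (counts scaled to a library of 1e+06). Of 10 macrophage markers 9 were matched, and their summed level was 15660 to 22680 CPM in CNT-7 and 24400 to 34660 CPM in CNT-T, so the groups did not overlap. This sum is nearly all Lyz2 (17589 CPM on average in CNT-7 and 24354 CPM in CNT-T), which was not called. Of the 9 markers, 5 were called lower in CNT-7 (Cd163, Adgre1, Fcgr1a, Csf1r and Cd68), 2 higher (Cd14 and Spi1) and 2 were not called (Lyz2 and Mertk). Neutrophil markers summed to 33.8 to 63.0 CPM in CNT-7 and 26.2 to 68.4 CPM in CNT-T, with Mpo listed at 0 and S100a8 the single one of 5 tested to be called (lower in CNT-7). Platelet markers, nearly all Pf4, summed to 184 to 413 CPM in CNT-7 and 468 to 721 CPM in CNT-T, with Gp9, Gp1ba and Gp1bb listed at 0. Dendritic cell markers summed to 13.4 to 19.1 CPM in CNT-7 and 7.34 to 15.7 CPM in CNT-T. Of the 4 tested, 3 were called higher in CNT-7, namely Ccr7 (log2 fold change 3.80, adjusted p = 0.011), Clec9a (1.76, adjusted p = 0.026) and Batf3 (0.78, adjusted p = 0.046). The other, Zbtb46, was not called (-0.22, adjusted p = 0.653). Counts per rat were between 0 and 94 for Ccr7 and between 5 and 59 for Clec9a. T and NK cell markers summed to 5.72 to 13.5 CPM in CNT-7 and 5.12 to 5.90 CPM in CNT-T. Of the 3 tested, Cd2 was called higher, at 1.38 to 3.43 CPM in CNT-7 and 0.0978 to 0.297 CPM in CNT-T. Lck (log2 fold change -0.25, adjusted p = 0.555) and Ncr1 (0.39, adjusted p = 0.450) were not called. B cell markers reached 3.28 CPM in CNT-7 and 0.692 CPM in CNT-T, mast cell markers 1.52 and 2.11 CPM, and mesothelial markers 0.837 and 0.396 CPM, with Wt1 and Upk3b listed at 0. The summed B cell markers and the summed T and NK cell markers were highest in CNT-7 rat 5 (Cd3e 2.11 CPM). Cd2, Ncr1 and Blk were instead highest in CNT-7 rat 10, and Nkg7 in CNT-T rat 2. S100a9 (3.68 CPM) and Ccr7 (3.15 CPM) were also highest in CNT-7 rat 5. Eosinophil markers were highest in CNT-7 rat 3 (9.33 CPM, of which Ccr3 was 8.73 CPM, with Epx and Prg3 at 0). The part of these cells in the differences was not tested. The counts of called genes are given below also without CNT-7 rats 3 and 5.

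The sequence just upstream of the genes that were called is shown for orientation, since these genes differed between the groups. An upstream sequence from RefSeq (build GRCr8) was at hand for 4 of the 5 called genes, but not for Adora2a. The 250 bases before the annotated start are at chr8:98150675-98150924 on the plus strand for Nt5e, at chr10:47439462-47439711 on the plus strand for Adora2b, at chr12:39523090-39523339 on the minus strand for P2rx4, and at chr1:164779489-164779738 on the minus strand for P2ry2. They are written 5′ to 3′ along the gene, with capitals where 1 of 7 searched motifs matched on either strand.
Nt5e: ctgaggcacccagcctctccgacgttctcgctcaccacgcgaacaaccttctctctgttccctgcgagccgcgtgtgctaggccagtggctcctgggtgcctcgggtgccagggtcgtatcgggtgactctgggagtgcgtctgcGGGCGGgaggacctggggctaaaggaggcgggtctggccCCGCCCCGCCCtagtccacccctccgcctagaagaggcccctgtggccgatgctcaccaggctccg
Adora2b: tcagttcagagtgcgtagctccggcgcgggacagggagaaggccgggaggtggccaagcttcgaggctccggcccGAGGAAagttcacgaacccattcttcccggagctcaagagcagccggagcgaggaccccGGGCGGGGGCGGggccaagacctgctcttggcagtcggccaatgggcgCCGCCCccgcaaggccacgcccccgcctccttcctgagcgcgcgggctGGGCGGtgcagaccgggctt
P2rx4: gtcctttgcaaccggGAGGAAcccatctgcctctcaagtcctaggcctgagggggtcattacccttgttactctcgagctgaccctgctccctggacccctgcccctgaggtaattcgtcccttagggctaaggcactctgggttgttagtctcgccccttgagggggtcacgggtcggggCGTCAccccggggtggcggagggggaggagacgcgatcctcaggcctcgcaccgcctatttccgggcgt
P2ry2: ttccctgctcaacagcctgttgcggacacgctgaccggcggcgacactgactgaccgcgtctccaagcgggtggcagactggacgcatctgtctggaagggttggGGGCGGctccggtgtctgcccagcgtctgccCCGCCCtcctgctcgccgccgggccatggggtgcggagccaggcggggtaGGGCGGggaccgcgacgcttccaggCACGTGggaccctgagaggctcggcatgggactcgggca

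The GC box GGGCGG, the letters bound by SP1, was present 3 times upstream of Nt5e, 4 times upstream of Adora2b and 3 times upstream of P2ry2, and was not in the window of P2rx4. It was present in 30.5% of all 33469 windows of the same length. Among the genes that were not called, Ada held it 3 times and P2rx7 2 times, and Entpd1 had no match to any of the 7 motifs. In Nt5e, 2 of the matches overlap by a base. The core GAGGAA of PU.1, the macrophage lineage factor, was present in Adora2b and P2rx4 and in 23.3% of all windows. P2rx7, which was not called, also held it. TGACG, found within cyclic AMP response elements, was present in P2rx4, on the other strand, and in 18.2% of all windows. ACGTG, the core of hypoxia response elements, was present in P2ry2 on both strands, as overlapping matches within CACGTG, and in 16.6% of all windows. The TATA box TATAAA (12.9% of all windows), the AP-1 site TGACTCA (4.0%) and the GATA site AGATAA (10.3%) had no match in these 4 windows. The G and C content was 68.8% for Nt5e, 71.2% for Adora2b, 64.0% for P2rx4 and 71.2% for P2ry2, beside a median of 51.2% over all windows. For genes that were not called it was 48.8% (Entpd1), 64.0% (Ada) and 56.0% (P2rx7). A match describes letters, and binding was not measured.

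**Figure D2:**
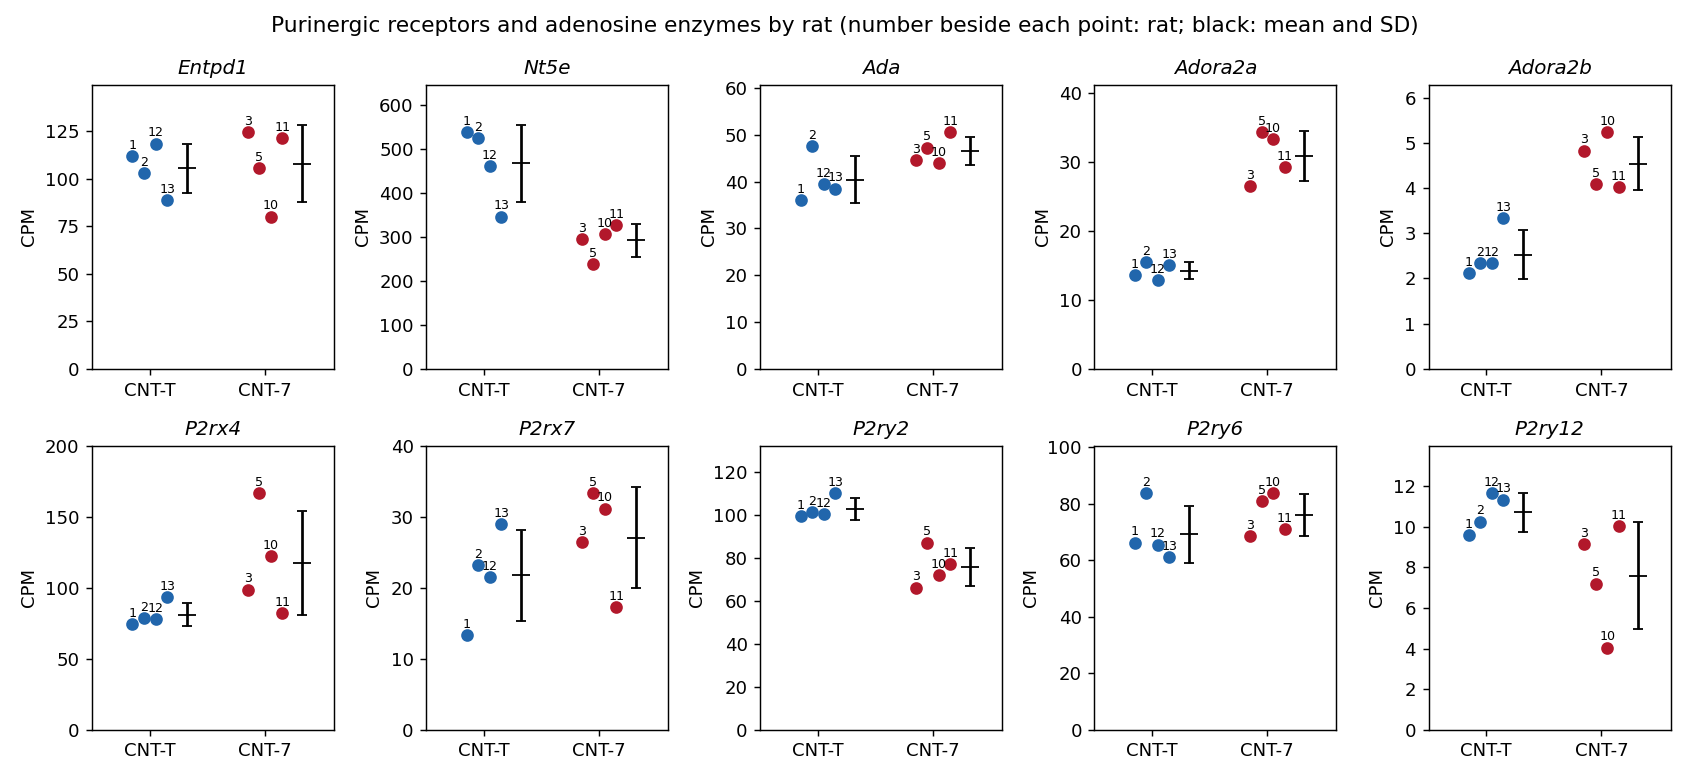
Level of each of the 10 genes in CPM (y axis, from 0) in the 4 CNT-T rats (blue) and the 4 CNT-7 rats (red), with the rat number beside each point and the mean and SD in black. The colours separate fully for Nt5e, Adora2a, Adora2b and P2ry2, and mix for the other 6 genes.

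Of the 3 enzymes, Nt5e was called lower in CNT-7, and Entpd1 and Ada were not called. Values below are CPM, computed with TMM-normalized library sizes, and means are given ± SD over 4 rats. They compare rats within a gene, not genes with each other, since no transcript lengths were used. Entpd1 (ENSRNOG00000014574), the ectonucleotidase CD39 that degrades ATP and ADP, was at 124, 106, 80.0 and 121 CPM in CNT-7 rats 3, 5, 10 and 11 and at 112, 103, 118 and 88.7 CPM in CNT-T rats 1, 2, 12 and 13. The groups overlapped, and the lowest value of all was that of CNT-7 rat 10. Means were 108 ± 20.2 in CNT-7 and 105 ± 12.8 in CNT-T, with a log2 fold change of 0.03 (SE 0.143, 95% interval -0.29 to 0.35, adjusted p = 0.901). The sign of this small difference turned without CNT-7 rat 3 (-0.04), without CNT-7 rat 11 (-0.03) and without CNT-T rat 13 (-0.04).

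Nt5e (ENSRNOG00000011071), the ectonucleotidase CD73 that produces adenosine from AMP, was at 296, 239, 306 and 327 CPM in CNT-7 rats 3, 5, 10 and 11 and at 538, 524, 461 and 346 CPM in CNT-T rats 1, 2, 12 and 13. Every CNT-7 rat was below every CNT-T rat, but CNT-T rat 13 was close to the highest CNT-7 rat. Means were 292 ± 37.8 in CNT-7 and 467 ± 87.5 in CNT-T, with a log2 fold change of -0.68 (SE 0.148, 95% interval -1.01 to -0.35, adjusted p = 0.0106). The call held when any single rat was left out, with a log2 fold change between -0.80 and -0.60. Without CNT-7 rats 3 and 5 together it was -0.57 with an adjusted p of 0.104. The rat numbers fall into a low range (5 and below) and a high range (10 and above), each with 2 rats of each group, which the labels do not call a batch. The difference in mean log2 CPM was -1.0 in the low range and -0.34 in the high range, and the difference between the ranges was not tested.

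Ada (ENSRNOG00000010265), which clears adenosine to inosine, was at 44.7, 47.2, 43.9 and 50.5 CPM in CNT-7 rats 3, 5, 10 and 11 and at 36.0, 47.6, 39.4 and 38.5 CPM in CNT-T rats 1, 2, 12 and 13. The groups overlapped through CNT-T rat 2 alone, which was above 3 of the 4 CNT-7 rats. Means were 46.6 ± 3.0 in CNT-7 and 40.4 ± 5.03 in CNT-T, with a log2 fold change of 0.21 (SE 0.0955, 95% interval -0.01 to 0.42, adjusted p = 0.165). Without CNT-T rat 2 it was 0.29 (adjusted p = 0.0393), which passes the threshold.

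Both A2 adenosine receptors were higher in CNT-7. Adora2a (ENSRNOG00000001302), the receptor of high affinity for adenosine, was at 26.5, 34.3, 33.3 and 29.2 CPM in CNT-7 rats 3, 5, 10 and 11 and at 13.6, 15.4, 12.9 and 15.0 CPM in CNT-T rats 1, 2, 12 and 13. The lowest CNT-7 rat was well above the highest CNT-T rat, and the rats within each group were close to each other. Means were 30.8 ± 3.61 in CNT-7 and 14.2 ± 1.21 in CNT-T, with a log2 fold change of 1.12 (SE 0.105, 95% interval 0.88 to 1.35, adjusted p = 0.000275). This was the single member past a 2-fold change, and 95.6% of all genes tested had a lower log2 fold change.

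Adora2b (ENSRNOG00000002922), the A2 receptor that needs more adenosine to be activated, was at 4.83, 4.09, 5.23 and 4.02 CPM in CNT-7 rats 3, 5, 10 and 11 and at 2.12, 2.33, 2.34 and 3.33 CPM in CNT-T rats 1, 2, 12 and 13. The groups did not overlap, and CNT-T rat 13 was the nearest to the CNT-7 rats. Means were 4.54 ± 0.590 in CNT-7 and 2.53 ± 0.542 in CNT-T, with a log2 fold change of 0.84 (SE 0.189, 95% interval 0.42 to 1.27, adjusted p = 0.0119). These values rest on 65 to 147 counts per rat, fewer on average than for the other 9 genes. The calls of both A2 receptors held in every setting tried, except that of Adora2b under a 2-fold change.

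P2rx4 (ENSRNOG00000001300), an ATP-gated channel found mainly on lysosomes of macrophages, was at 98.7, 167, 122 and 82.1 CPM in CNT-7 rats 3, 5, 10 and 11 and at 74.5, 78.5, 78.2 and 93.4 CPM in CNT-T rats 1, 2, 12 and 13. The groups overlapped, since CNT-T rat 13 was above CNT-7 rat 11, and CNT-7 rat 5 was far above all others. Means were 117 ± 36.8 in CNT-7 and 81.2 ± 8.37 in CNT-T, with a log2 fold change of 0.53 (SE 0.193, 95% interval 0.10 to 0.97, adjusted p = 0.0809). The call was lost without CNT-7 rat 5 (0.31, adjusted p = 0.173). It was also lost without CNT-7 rat 10 (adjusted p = 0.141), CNT-T rat 1 (0.158), CNT-T rat 2 (0.164) or CNT-T rat 12 (0.169), without CNT-7 rats 3 and 5 together (0.32, adjusted p = 0.291), and with a block for the low and high rat numbers (0.52, adjusted p = 0.104).

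P2rx7 (ENSRNOG00000001296), the ATP-gated channel upstream of the inflammasome, was at 26.4, 33.4, 31.2 and 17.3 CPM in CNT-7 rats 3, 5, 10 and 11 and at 13.4, 23.1, 21.6 and 28.9 CPM in CNT-T rats 1, 2, 12 and 13. The groups overlapped widely, with CNT-7 rat 11 below 3 of the 4 CNT-T rats. Means were 27.0 ± 7.14 in CNT-7 and 21.7 ± 6.42 in CNT-T, with a log2 fold change of 0.32 (SE 0.249, 95% interval -0.24 to 0.87, adjusted p = 0.422). The difference in mean log2 CPM was 0.74 in the low range of rat numbers and -0.10 in the high range.

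P2rx4 and P2rx7 are neighbours in the RefSeq gene order, and their rats stood in the same order within each group, which was noticed after their values were seen. In CNT-7 the order from high to low was rat 5, 10, 3 and 11 for both genes, and in CNT-T it was rat 13, 2, 12 and 1. For P2rx4, CNT-T rats 2 and 12 were nearly tied (78.485 and 78.204 CPM), so their order is not resolved. The highest CNT-7 rat was 2.03 times the lowest for P2rx4 and 1.93 times for P2rx7. In CNT-T the ratio of the highest to the lowest rat was 1.25 for P2rx4 and 2.16 for P2rx7. P2ry2, on another chromosome, had this same order in CNT-T but not in CNT-7, with CNT-T rats 2 and 12 again close (101.42 and 100.58 CPM). The genes that flank the pair had other orders. Camkk2, a calcium-dependent kinase whose span overlaps that of P2rx4, had a log2 fold change of -0.01 (adjusted p = 0.966), and Ift81, a ciliary transport gene beside P2rx7, had 0.11 (adjusted p = 0.771).

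**Figure D3:**
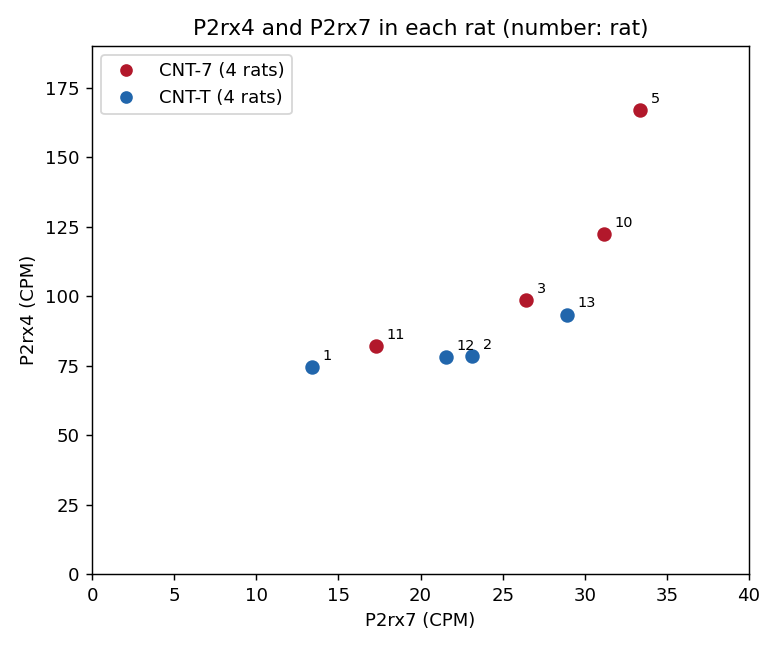
Level of P2rx4 (y axis, CPM) against that of P2rx7 (x axis, CPM) in each of the 4 CNT-7 rats (red) and 4 CNT-T rats (blue), with the rat number beside each point. Within each colour the rats rise together, from rat 11 to rat 5 in CNT-7 and from rat 1 to rat 13 in CNT-T, and P2rx4 lies between 74.5 and 93.4 CPM in all CNT-T rats.

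Of the 3 P2Y receptors, P2ry2 was called lower in CNT-7, and P2ry6 and P2ry12 were not called. P2ry2 (ENSRNOG00000019283), a receptor for ATP and UTP that guides phagocytes to dying cells, was at 66.2, 87.2, 72.0 and 77.1 CPM in CNT-7 rats 3, 5, 10 and 11 and at 99.4, 101, 101 and 110 CPM in CNT-T rats 1, 2, 12 and 13. Every CNT-7 rat was below every CNT-T rat, and the CNT-T rats lay close together. Means were 75.6 ± 8.89 in CNT-7 and 103 ± 4.99 in CNT-T, with a log2 fold change of -0.44 (SE 0.0892, 95% interval -0.64 to -0.24, adjusted p = 0.00739). The difference in mean log2 CPM was -0.40 in the low and -0.50 in the high range of rat numbers, and the call held in every setting other than that of a 2-fold change.

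P2ry6 (ENSRNOG00000019270), a receptor for UDP that promotes phagocytosis and is the next gene to P2ry2, was at 68.6, 81.0, 83.7 and 71.0 CPM in CNT-7 rats 3, 5, 10 and 11 and at 66.3, 83.9, 65.5 and 61.1 CPM in CNT-T rats 1, 2, 12 and 13. The highest value of all was that of CNT-T rat 2, so the groups overlapped. Means were 76.1 ± 7.41 in CNT-7 and 69.2 ± 10.0 in CNT-T, with a log2 fold change of 0.14 (SE 0.110, 95% interval -0.11 to 0.38, adjusted p = 0.437). Fchsd2, whose span overlaps P2ry2 in the annotation, had a log2 fold change of -0.13 (adjusted p = 0.268).

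P2ry12 (ENSRNOG00000013902), the receptor for ADP known from platelets and microglia, was at 9.13, 7.20, 4.04 and 10.0 CPM in CNT-7 rats 3, 5, 10 and 11 and at 9.58, 10.3, 11.7 and 11.3 CPM in CNT-T rats 1, 2, 12 and 13. CNT-7 rat 11 lay within the range of CNT-T, and CNT-7 rat 10 was the lowest of all. Means were 7.60 ± 2.65 in CNT-7 and 10.7 ± 0.966 in CNT-T, with a log2 fold change of -0.49 (SE 0.240, 95% interval -1.03 to 0.04, adjusted p = 0.185). Without CNT-7 rat 11 it was -0.66 (adjusted p = 0.0876), which passes the threshold, and without CNT-7 rat 10 it was -0.28. Pf4, which platelets and macrophages both express, was lower in every CNT-7 rat than in any CNT-T rat, while the platelet integrin gene Itga2b was at 0.578 to 1.04 CPM in CNT-7 and 0.424 to 1.29 CPM in CNT-T. Of the platelet glycoprotein genes, Gp6 was at 0.0722 to 0.821 CPM in CNT-7 and at most 0.0296 CPM in CNT-T, and Gp9, Gp1ba and Gp1bb were listed at 0. P2ry12 lies in a cluster of ADP and UDP-sugar receptors within Med12l, and its neighbours P2ry13 (-0.19, adjusted p = 0.50) and P2ry14 (-0.46, adjusted p = 0.406) had log2 fold changes of the same sign that did not pass.

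Around the 10 genes, 103 symbols of purinergic signalling were listed by role, with 85 rows tested. Of these, 31 were called (36.5%), 19 higher and 12 lower in CNT-7, against 27.9% of all genes in either direction. Their median log2 fold change was 0.04. Without CNT-7 rats 3 and 5 together, 9 of the listed genes and 3 of the 10 genes (Adora2a, Adora2b and P2ry2) were called, and 13.6% of all genes. The 9 were P2rx1, P2ry1, Enpp3, Crem, Prkacb, Plcb2, Plcb4, Il1b and Nek7, so none of them came from the lists of intracellular diphosphatases, nucleotide release and adenosine handling. In that setting the groups did not overlap for 4 of the 10 genes and for 4145 of all 12381 genes tested. Leaving rats out cannot create an overlap, so this count could not fall for genes already apart.

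**Figure D4:**
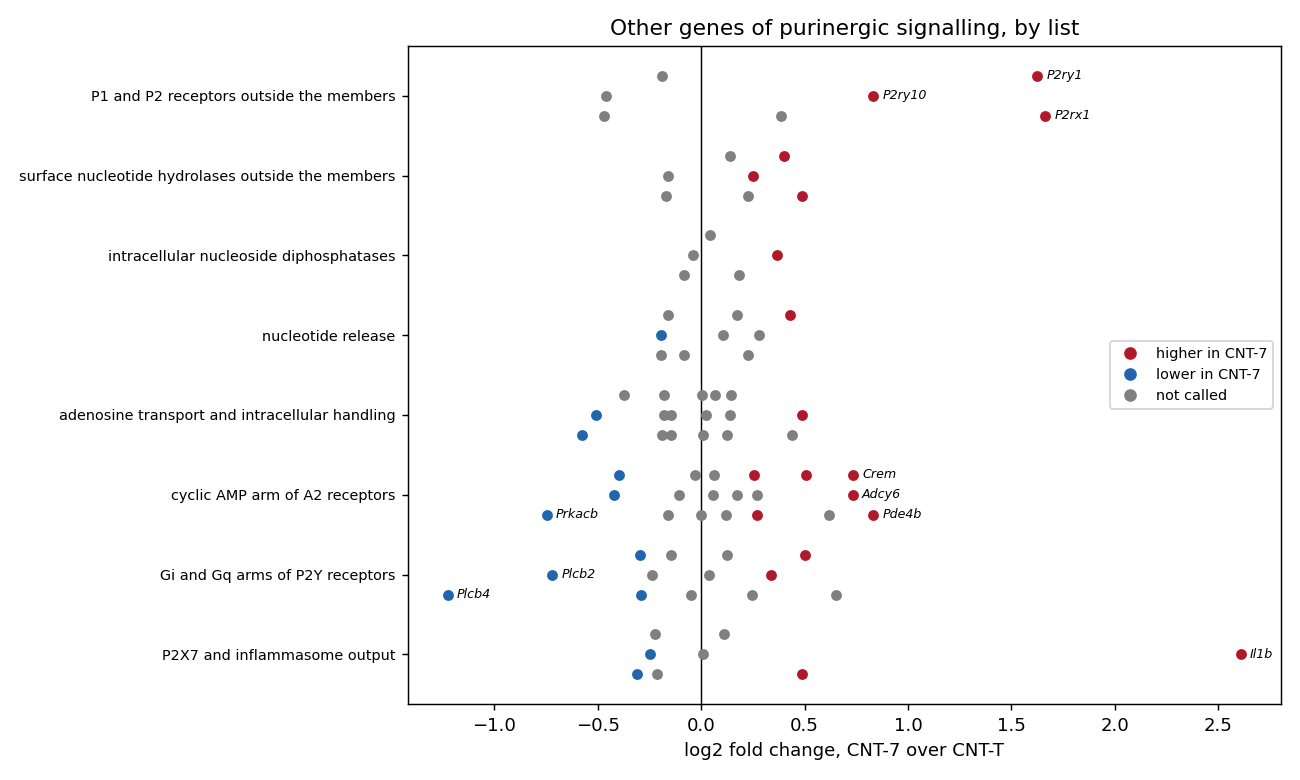
Log2 fold change, CNT-7 over CNT-T (x axis), of the 85 tested genes of purinergic signalling outside the 10 genes, in 8 lists by role (y axis; vertical scatter within a list only separates points), with genes called higher in red, called lower in blue and not called in grey. The red points of the receptor list reach 1.67, Il1b is at 2.61 and Plcb4 at -1.22.

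Of 7 other receptors tested, 3 were called (42.9%, against 27.9% of all genes in either direction). All 3 were higher in CNT-7, and the other 4 were not called. Without CNT-7 rats 3 and 5, 2 of 8 tested were called (25%, against 13.6% of all genes in either direction). P2rx1, an ATP-gated channel, was at 11.8, 12.3, 6.21 and 10.5 CPM in CNT-7 rats 3, 5, 10 and 11 and at 2.70 to 3.51 CPM in CNT-T, a log2 fold change of 1.67 (SE 0.216, adjusted p = 0.000997). P2ry1, a receptor for ADP, was at 26.0, 18.8, 34.2 and 24.6 CPM in CNT-7 and at 6.82 to 10.5 CPM in CNT-T, a log2 fold change of 1.63 (SE 0.194, adjusted p = 0.000717). The groups were far apart for both, and these log2 fold changes lay above those of the 10 genes. P2ry10, a lysophospholipid receptor placed in the P2Y family by its sequence, was at 96.5 to 125 CPM in CNT-7 and at 39.2 to 79.2 CPM in CNT-T, a log2 fold change of 0.83 (adjusted p = 0.0114). P2rx2, P2rx5 and Gpr17 were listed at 0 in all rats.

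Of 7 other surface hydrolases tested, 3 were called (42.9%, against 27.9% of all genes in either direction), all higher in CNT-7. Without CNT-7 rats 3 and 5 the count was 1 (14.3%, against 13.6% of all genes in either direction). Enpp3, which hydrolyses ATP to AMP, was at 2305 to 2448 CPM in CNT-7 and at 1696 to 1988 CPM in CNT-T, a log2 fold change of 0.40 (adjusted p = 0.00611). Cd38, which consumes NAD, had a log2 fold change of 0.25 (adjusted p = 0.0268) with no overlap of the groups. Enpp1, which hydrolyses ATP to AMP and pyrophosphate, had 0.49 (adjusted p = 0.0675), and its groups overlapped through CNT-T rat 13 at 53.8 CPM. Its call was lost without any of CNT-7 rats 5, 10 and 11 or CNT-T rats 1, 2 and 12, with an adjusted p of up to 0.167. Of 5 intracellular diphosphatases tested, 1 was called (20%, against 27.9% of all genes). This was Entpd5, of the endoplasmic reticulum, higher in CNT-7 (log2 fold change 0.37, adjusted p = 0.0201).

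Of 9 genes of nucleotide release tested, 2 were called (22.2%, against 27.9% of all genes). Panx1, the pannexin channel that lets ATP out of cells, was called higher in CNT-7. It was at 12.4 to 16.5 CPM against 9.91 to 11 CPM in CNT-T (log2 fold change 0.43, adjusted p = 0.0209). Lrrc8d, a subunit of volume-regulated anion channels, was called lower in CNT-7 (log2 fold change -0.20, adjusted p = 0.0468), a call lost without CNT-7 rat 3, 5 or 10 or CNT-T rat 12 (adjusted p of up to 0.122). Of 17 genes of adenosine transport and handling tested, 1 was called higher and 2 lower in CNT-7 (17.6% together, against 27.9% of all genes). Pnp, which cleaves the inosine made by adenosine deaminase, was at 780 to 1072 CPM in CNT-7 and at 1157 to 1633 CPM in CNT-T, a log2 fold change of -0.58 (adjusted p = 0.0119). Ahcy, which releases adenosine from S-adenosylhomocysteine, had -0.51 (adjusted p = 0.0361), also with no overlap. Slc28a2, a concentrative transporter of adenosine, had 0.49 (adjusted p = 0.0554), a call lost without CNT-7 rat 3, 5 or 11 or CNT-T rat 2 or 13 (adjusted p of up to 0.134). Hprt1, a gene that most cells use, was listed at 0 in all 8 rats, so a 0 in this table can be a failed estimate.

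Of 19 genes tested in the cyclic AMP arm downstream of A2 receptors, 6 were called higher and 3 lower in CNT-7. Together these were 47.4%, against 27.9% of all genes. Without CNT-7 rats 3 and 5 the counts were 1 and 1 (10.5%, against 13.6% of all genes). The largest differences toward CNT-7 were those of Pde4b, a phosphodiesterase that degrades cyclic AMP (log2 fold change 0.83, adjusted p = 0.0115), Crem, a transcription factor induced by cyclic AMP (0.73, adjusted p = 0.0190), and the adenylyl cyclase Adcy6 (0.73, adjusted p = 0.0151). Crem was at 26.5 to 49.7 CPM in CNT-7 and at 18.9 to 24.0 CPM in CNT-T. Lower in CNT-7 were Prkacb, a catalytic subunit of protein kinase A (-0.75, adjusted p = 0.00119), the adenylyl cyclase Adcy9 (-0.42, adjusted p = 0.0178) and the phosphodiesterase Pde7a (-0.40, adjusted p = 0.0277). Prkacb was at 82.4 to 95.1 CPM in CNT-7 and at 129 to 174 CPM in CNT-T. The groups did not overlap for 8 of the 19 genes, against 24.9% of all genes. The 6 named genes are among these 8, having been chosen as the largest called rises and falls. In the main test the list thus holds cyclases and phosphodiesterases in both directions. The calls of Pde4b, Adcy6, Adcy9 and Pde7a were lost without CNT-7 rats 3 and 5 (adjusted p of up to 0.172).

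Of 13 genes of the Gi and Gq arms of P2Y receptors tested, 2 were called higher and 4 lower in CNT-7. Together these were 46.2%, against 27.9% of all genes. Without CNT-7 rats 3 and 5 the counts were 0 and 2 (15.4%, against 13.6% of all genes). Plcb4, a phospholipase C of the Gq arm, was at 12.9, 21.0, 14.2 and 16.7 CPM in CNT-7 rats 3, 5, 10 and 11 and at 42.6, 26.5, 41.4 and 41.0 CPM in CNT-T rats 1, 2, 12 and 13, a log2 fold change of -1.22 (SE 0.187, adjusted p = 0.00223). Its relative Plcb2 had -0.72 (adjusted p = 0.0103), with all CNT-7 rats below all CNT-T rats. The inositol trisphosphate receptor Itpr1 had -0.30 (adjusted p = 0.0562), a call lost without CNT-7 rat 3, 5 or 10 or CNT-T rat 2 (adjusted p of up to 0.138). Pik3r5, a regulatory subunit of phosphoinositide 3-kinase gamma, had 0.50 (adjusted p = 0.00852). Gnai3, an inhibitory G protein, had 0.34 (adjusted p = 0.0421), a call lost without CNT-7 rat 5 or 10 or CNT-T rat 12 (adjusted p of up to 0.115).

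Of 8 genes tested on the output side of P2X7 and the inflammasome, 2 were called higher and 2 lower in CNT-7. Together these were 50%, against 27.9% of all genes. Without CNT-7 rats 3 and 5 the counts were 2 and 0 (25%, against 13.6% of all genes). Il1b, the cytokine released through this route, was at 1.48, 1.77, 1.62 and 0.905 CPM in CNT-7 rats 3, 5, 10 and 11 and at 0.130, 0.384, 0.264 and 0.143 CPM in CNT-T rats 1, 2, 12 and 13, a log2 fold change of 2.61 (SE 0.390, adjusted p = 0.00198). The groups did not overlap, but the counts were between 4 and 53 per rat. Nek7, a kinase that NLRP3 needs, had 0.49 (adjusted p = 0.00779) with no overlap. Il18 (-0.31, adjusted p = 0.0656) and Casp1, the protease that matures both cytokines (-0.25, adjusted p = 0.0787), were called lower, but their groups overlapped. The call of Il18 was lost without CNT-7 rat 3, 5 or 11 or CNT-T rat 12 or 13 (adjusted p of up to 0.164), and that of Casp1 without CNT-7 rat 3, 5 or 10 or CNT-T rat 2, 12 or 13 (up to 0.174).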

How the data were processed

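RNA-seq of sorted peritoneal macrophages from 4 CNT-7 and 4 CNT-T rats was used, with groups and rat numbers from the sample labels. Libraries were stranded. The authors ran the ARMOR workflow: reads were checked with FastQC and quantified with Salmon against Ensembl rat cDNA (Rnor_6.0), then imported with tximeta. Salmon's version is not given in the sources used here. The authors deposited estimated counts per gene, not normalized and already whole, so rounding changed no value. Salmon shares reads between similar transcripts, which can blur near-identical or overlapping genes.

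Genes were filtered with filterByExpr (minimum count 10, minimum total 15) and tested in R 4.3.3 by edgeR 4.0.16 (quasi-likelihood, TMM normalization, no covariate), with Benjamini-Hochberg adjustment over 12124 genes. Each standard error was obtained from the fold change and its F statistic. Alternatives included DESeq2 1.42.0. The members and lists were chosen with earlier results of these data known. Outside the 10 genes, the 3 called genes highest and the 3 lowest in CNT-7 of each list are named, other genes being stated as chosen after their values were seen, as neighbours, as cell type markers, or as at 0. The scripts were tested on simulated counts. Rats are the replicates. The 3-count limit covers counting error only.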

Additional observations from a re-analysis of the deposited data

Results flagged for a closer look

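The 10 genes and the named genes of the lists gave 74 groups of 4 rats. In 4 of them 1 rat stood apart, by a gap to its nearest neighbour that exceeds Dixon's 95% limit for 4 values as a share of the group's range, and chance alone would give about 3.7. None of the 4 concerns the 10 genes, and all lie in CNT-T. Enpp1 was highest in CNT-T rat 13 (53.8 CPM against 32.4 to 35.4 CPM, a gap of 0.859 of the range). Pde4b was lowest in CNT-T rat 2 (4.31 CPM against 4.94 to 5.02 CPM, a gap of 0.886). Adcy6 was highest in CNT-T rat 12 (12.3 CPM against 10.5 to 10.7 CPM, a gap of 0.905). Plcb4 was lowest in CNT-T rat 2 (26.5 CPM against 41.0 to 42.6 CPM, a gap of 0.904).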

How the results depend on the processing

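The alternatives were DESeq2, upper-quartile normalization, testing without a filter, a filter of at least 10 counts in each of the rats, a threshold of 0.05, a minimum change of 2-fold, a block for low and high rat numbers, and omission of single rats. Leaving out CNT-7 rats 3 and 5 together was chosen after seeing the data. Of the 10 genes, 5 were called in the main test, between 4 and 6 when single rats were left out, 1 with at least a 2-fold change and 3 without CNT-7 rats 3 and 5. Of the genes of the lists, 31 were called in the main test, between 24 and 34 when single rats were left out, 4 with at least a 2-fold change and 9 without CNT-7 rats 3 and 5. That last setting compares 2 rats with 4 and called 13.6% of all genes, where the main test called 27.9%. When single rats were left out, between 21% and 28.7% of all genes were called. The share of all genes called with at least a 2-fold change is not given here. The sign turned for Entpd1 alone, whose log2 fold change ran from -0.0438 to 0.1526 when single rats were left out and was -0.076 without CNT-7 rats 3 and 5. Over all alternatives and the 10 genes, 126 values kept their direction and their side of the threshold, 8 fell below it (7 of P2rx4 and 1 of Nt5e), 2 rose past it and 4 turned sign. The block called 4 of the 10 genes, losing P2rx4, and 27.7% of all genes. No paired analysis was possible because the groups share no rat number. Il1b had no value under the filter of at least 10 counts in every rat.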
